A study of Homo sapiens with 6 samples.

Results

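YAP1 and WWTR1, the TEAD factors they bind and a group of their direct targets were followed in MDA-MB231 cells after knockdown of the receptor Ror1. The 10 genes were chosen by symbol as the core of this pathway, and are YAP1, WWTR1, TEAD1, TEAD3, TEAD4, CCN1 (formerly CYR61), CCN2 (formerly CTGF), ANKRD1, AMOTL2 and LATS2. Each symbol matched 1 of the 57445 gene identifiers in the deposited table, and all 10 were among the 16554 genes tested, which reached 1 TPM in 3 or more libraries. TPM is a length-corrected share of all transcripts, scaled to a total of 1000000 per library, so levels of different genes can be set side by side.

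The established line MDA-MB231 derives from a triple-negative breast cancer, which lacks hormone receptors. Cells of both groups carried a stably integrated lentiviral pGIPZ vector at a multiplicity of infection of 5.0 and were kept under selection with 2 µg/ml puromycin. The vector held a non-silencing shRNA in shCTL cells and an shRNA against ROR1 in shRor1 cells, and 3 libraries of each group were sequenced as single reads of 50 bases. A single shRNA against ROR1 was used, and nothing states whether the libraries of a group came from separate cultures, so that the spread between them may be technical. The header of the control columns also carries the word DMSO, which the shRor1 header lacks, and an effect of this solvent cannot be told apart from that of the knockdown. The columns of a group share 1 header, and libraries are numbered here by their order in the table.

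The Hippo pathway controls organ size and cell growth through a kinase cascade. The kinases STK3 and STK4 with their partner SAV1 activate LATS1 and LATS2 with MOB1A or MOB1B, and the LATS kinases phosphorylate YAP1 and its paralog TAZ, the product of WWTR1, which keeps both out of the nucleus. When the cascade is off, YAP1 and TAZ enter the nucleus, bind the DNA-binding TEAD factors and raise transcription of genes such as CCN1, CCN2 and ANKRD1. NF2, whose loss switches the cascade off, is mutated in MDA-MB231 cells, and YAP1 and TAZ are known to be active there. Non-canonical Wnt ligands such as Wnt5a can activate YAP1 and TAZ through Frizzled and Ror receptors, the G proteins GNA12 and GNA13 and the GTPase RHOA. Because YAP1 and TAZ are controlled by phosphorylation and location, their mRNA does not report their activity, whereas the mRNA of their targets is commonly read for it.

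Some of the members carry the word read by TEAD factors close to their start, and these stretches are shown because CCN2 and ANKRD1 serve as the common readouts of YAP1 and TAZ. The motif GGAATG was searched on both strands in RefSeq promoter windows of 300 bases, 250 before to 50 after an annotated start. It was found in 4928 of 35116 windows (14.0%) and in at least 1 window of 16.7% of 27305 genes. Windows were held for 7 of the members, 9 windows in all, and 5 of these genes had the motif in at least 1 window. The capitals below mark the motif or its reverse complement, and each stretch runs 5′ to 3′ on the strand of the gene.
CCN2: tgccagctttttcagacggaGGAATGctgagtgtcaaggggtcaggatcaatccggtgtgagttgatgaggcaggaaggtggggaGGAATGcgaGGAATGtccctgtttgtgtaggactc
ANKRD1: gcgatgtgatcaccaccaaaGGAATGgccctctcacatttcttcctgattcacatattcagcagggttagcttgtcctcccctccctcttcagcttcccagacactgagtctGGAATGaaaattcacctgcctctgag
AMOTL2: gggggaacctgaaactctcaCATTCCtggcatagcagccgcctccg
YAP1: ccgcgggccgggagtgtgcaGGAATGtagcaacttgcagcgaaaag

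In CCN2 the motif began at positions -169, -104 and -95 relative to the start, and the stretch matched the GRCh37 genome at 1 place, chr6:132272582-132272701 on the minus strand. A window with 3 or more copies was rare, at 45 of 35116 (0.128%). ANKRD1 had 2 copies, at -220 and -128 (chr10:92680947-92681084, minus strand), and 482 windows (1.37%) had 2 or more. AMOTL2 had 1 copy on the opposite strand, at -69 from the more downstream of its annotated starts (chr3:134093333-134093378, minus strand), and none at the other start. YAP1 itself had 1 copy, at -162 (chr11:101980996-101981041, plus strand). In LATS2 the motif began 10 bases after the start. The windows of WWTR1 and TEAD3 held none, while CCN1, TEAD1 and TEAD4 had no entry. The longer motif ACATTCC, whose letters contain the reverse complement of the shorter one, was held by 3.46% of windows (4.25% of genes) and by those of CCN2, AMOTL2 and YAP1. A match of letters is a description and does not show that a TEAD factor was bound.

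**Figure D1:**
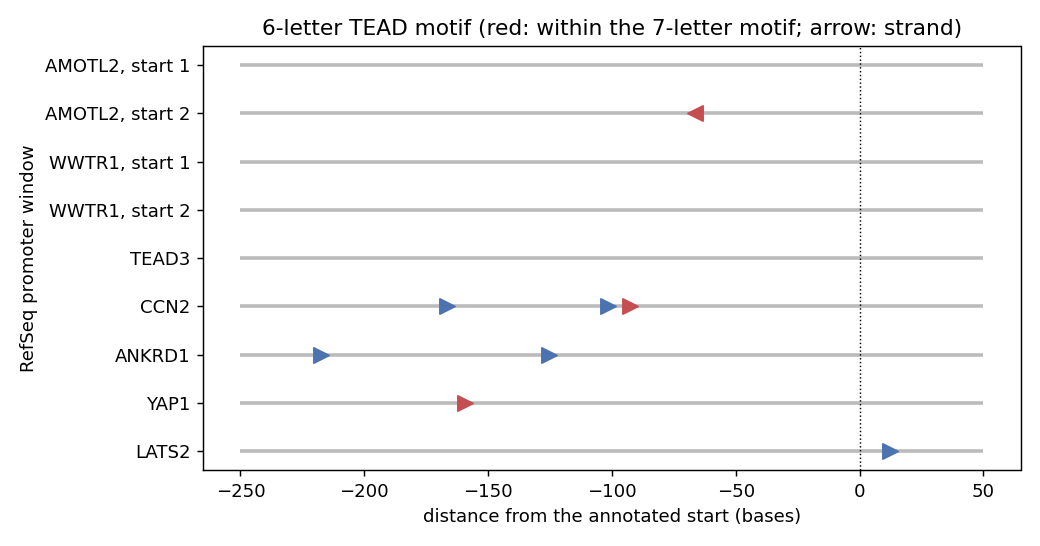
Position of the 6-letter TEAD motif in each RefSeq promoter window of the members, in bases from the annotated start (x axis; grey line: the window; arrow: strand relative to the gene; red: also within the 7-letter motif). CCN2 shows 3 copies and ANKRD1 shows 2, all before the start, while the windows of WWTR1 and TEAD3 are empty.

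Before the comparison, the libraries were checked. Marker genes of MDA-MB231 type cells (VIM, CD44, SPARC and CAV1) summed to between 3463 and 3667 TPM in shCTL and between 3563 and 3923 TPM in shRor1. The hormone receptor genes ESR1 and PGR did not exceed 0.21 TPM, and the 5 luminal markers summed to between 9.86 and 15.7 TPM in shCTL and between 10.5 and 23.9 TPM in shRor1. Leukocyte markers summed to at most 0.93 TPM and endothelial markers to at most 1.77 TPM. Between 16036 and 17033 genes reached 1 TPM in a library. ROR1, the targeted gene, was at 15.4, 13.5 and 20.6 TPM in shCTL, against 9.34, 11.9 and 14.8 TPM in shRor1, 73% of the control mean. The groups overlapped and the difference did not pass the test (log2 fold change -0.42, standard error 0.20, adjusted p = 0.984 from limma), so that the knockdown itself did not pass the test at the mRNA level. The paper shows the knockdown at the protein level, by western blot of Ror1. It also reports lower RhoA protein and less phosphorylation of the kinase JNK in the knockdown cells. Of the 16554 genes, 0 had an adjusted p below 0.05 from limma on TPM. The paper, with another test on counts and the same adjusted threshold, reports only AGR2 and the gene of an uncharacterized protein. An unadjusted p below 0.05 from limma was reached by 472 genes (2.85%), 382 of them higher in shRor1 (2.31%) and 90 lower (0.544%). As these are bulk libraries, a lower level can mean fewer cells with a transcript or less of it per cell, which cannot be told apart.

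In control cells the direct targets CCN1, ANKRD1 and CCN2 were among the most abundant mRNAs of the cell. CCN1, a secreted matricellular protein of the CCN family, had a mean of 765 ± 64.7 TPM (SD, n = 3), which placed it 193rd among the tested genes. ANKRD1, an ankyrin repeat protein first known from heart muscle, followed at 391 ± 28.4 TPM (SD, n = 3) and CCN2, the connective tissue growth factor, at 237 ± 30.7 TPM (SD, n = 3). All of these values, and thus the order CCN1, ANKRD1, CCN2, stood apart in the 3 shCTL libraries without overlap. YAP1 (89.6 ± 2.08 TPM), AMOTL2 (86.4 ± 2.99 TPM) and TEAD1 (77.1 ± 5.99 TPM, SD, n = 3 each) came next, and each overlapped with its neighbour in this order. WWTR1 (58.9 ± 4.601 TPM), TEAD4 (47.6 ± 1.49 TPM), TEAD3 (16.4 ± 2.80 TPM) and LATS2 (7.81 ± 0.469 TPM, SD, n = 3 each) followed without overlap between neighbours. Targets thus ranged from 765 TPM for CCN1 to 7.81 TPM for LATS2, the kinase that acts back on YAP1 and TAZ.

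The order in shRor1 cells held the same 10 places. What differed was the separation of neighbours, since YAP1 now stood above AMOTL2 without overlap, while WWTR1 at 77.1 ± 13.2 TPM (SD, n = 3) overlapped with TEAD1 at 80.4 ± 4.92 TPM (SD, n = 3).

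**Figure D2:**
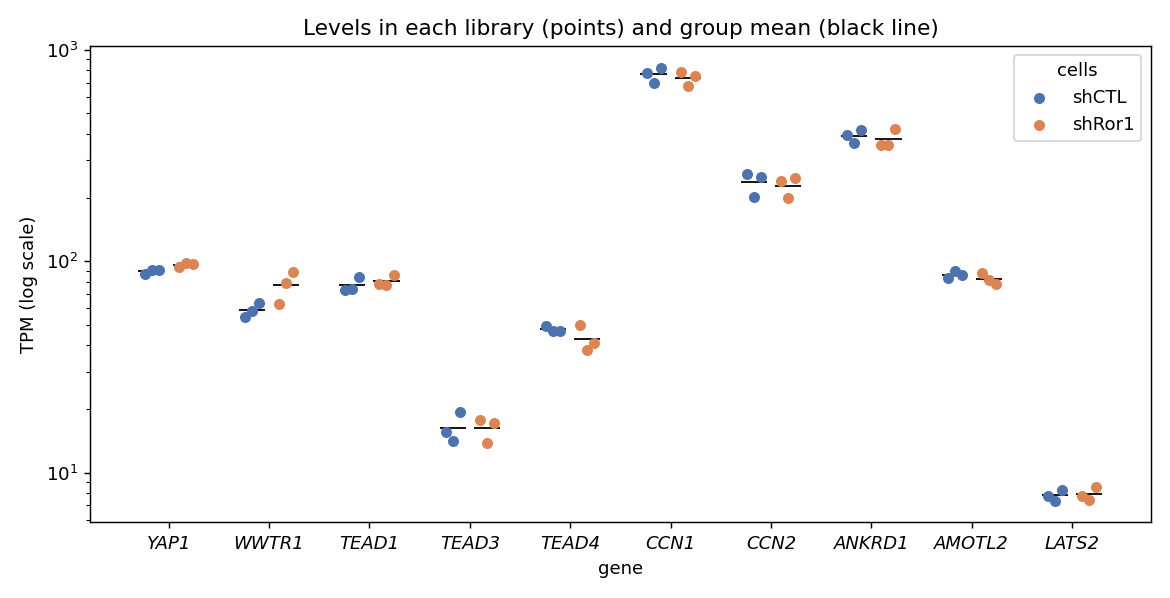
TPM on a log axis (y) of the 10 genes (x) in each of the 3 shCTL (blue) and 3 shRor1 (orange) libraries, with black lines at the group means. CCN1, ANKRD1 and CCN2 lie at 198 TPM or more in every library, and WWTR1 shows the widest offset between the groups.

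The first question was whether the mRNA of the coactivators differed after knockdown. WWTR1, the gene of TAZ (ENSG00000018408.10, GRCh37 chr3:149235022-149454501, minus strand), was at 54.5, 58.4 and 63.7 TPM in shCTL, against 63.0, 79.2 and 89.2 TPM in shRor1. Libraries 2 and 3 of shRor1 lay above all controls, and library 1 lay just below the highest control. Such a position was common, as 29.3% of all genes tested had these libraries both above or both below all controls. The mean in shRor1 was 131% of that in shCTL, with a log2 fold change of 0.37 on the log2(TPM + 1) scale (95% interval 0.07 to 0.68, standard error 0.13). WWTR1 had an unadjusted p of 0.0228 and an adjusted p of 0.984 (limma with Benjamini-Hochberg adjustment over all genes tested), and the exact two-sided permutation test gave p = 0.2, where 3 libraries against 3 cannot go below 0.1. It was the only member at an unadjusted p below 0.05, 1 of 10 and higher in shRor1, where 2.31% of all genes tested were at such a p and higher. Its log2 fold change was 0.51 without library 1 of shRor1 and 0.26 without library 3. Leaving out shCTL library 1 or 2 or shRor1 library 2 or 3 moved its unadjusted p to between 0.0532 and 0.0774.

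YAP1, the founding coactivator (ENSG00000137693.9, chr11:101981178-102104155, plus strand), was at 87.2, 90.8 and 90.8 TPM in shCTL, against 93.5, 98.0 and 97.3 TPM in shRor1. All 3 shRor1 values lay above all 3 controls, although the shRor1 mean was only 107% of the shCTL mean. The log2 fold change was 0.10 (95% interval -0.04 to 0.25, standard error 0.06), the exact permutation p was 0.1, the smallest possible, and the adjusted p was 0.984 from limma. YAP1 was the only member whose groups did not overlap, 1 of 10, and over all genes tested 7.78% did not overlap, 6.48% with shRor1 higher and 1.3% with shRor1 lower. This separation depended on scaling. The median gene was 0.05 higher in shRor1 on the log2 scale. After quantile normalization or median ratio scaling, which remove this shift, the YAP1 groups overlapped while those of WWTR1 did not. Of all genes tested, 6.47% did not overlap after quantile normalization and 6.78% after median ratio scaling. The log2 fold change of YAP1 was then 0.04 after median ratio scaling (unadjusted p = 0.565 from limma) and 0.09 after quantile normalization.

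Both coactivators together summed to 142, 149 and 154 TPM in shCTL and to 157, 177 and 186 TPM in shRor1. The ratio of WWTR1 to YAP1, which needs no scaling between libraries, was 0.625, 0.644 and 0.701 in shCTL and 0.674, 0.808 and 0.916 in shRor1. YAP1 was thus the more abundant mRNA in all 6 libraries, with the nearest approach in library 3 of shRor1. The ratio in library 1 of shRor1 lay within the range of the controls, and the other 2 lay above it.

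The TEAD factors, which carry the DNA-binding domain for both coactivators, gave no member past the test. TEAD1 (ENSG00000187079.10, chr11:12695968-12966284, plus strand) was at 73.4, 74.0 and 84.0 TPM in shCTL, against 78.1, 76.9 and 86.0 TPM in shRor1. The groups overlapped, and the log2 fold change was 0.06 (95% interval -0.14 to 0.26, adjusted p = 0.984 from limma). TEAD4 (ENSG00000197905.4, chr12:3068496-3149842, plus strand) was at 49.4, 46.9 and 46.7 TPM in shCTL, against 49.8, 38.2 and 41.0 TPM in shRor1. Its first shRor1 library was the highest of all 6 and the other 2 were the lowest. The log2 fold change was -0.15 (95% interval -0.40 to 0.10, adjusted p = 0.984 from limma), and it was -0.26 without the first shRor1 library (unadjusted p = 0.0141, adjusted p = 0.44 from limma). Leaving out that library raised the count of genes at an unadjusted p below 0.05 from 472 to 1720 of 16554. TEAD3 (ENSG00000007866.14, chr6:35441374-35464856, minus strand) was at 15.5, 14.1 and 19.5 TPM in shCTL, against 17.8, 13.9 and 17.3 TPM in shRor1. Its values interleaved, with a log2 fold change of 0.00 (95% interval -0.34 to 0.34).

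TEAD2 is no member, but it completes the family and was at 18.8 ± 3.18 TPM in shCTL and 19.3 ± 1.79 TPM in shRor1 (SD, n = 3 each). The 4 TEAD genes summed to 160 ± 11.01 TPM in shCTL and 159 ± 9.25 TPM in shRor1 (SD, n = 3 each), beside means of 148 and 173 TPM for YAP1 and WWTR1 together. TEAD1 made up 47.5, 48.5 and 48.7% of this sum in shCTL and 47.8, 51.8 and 52.0% in shRor1. TEAD4 made up 31.9, 30.7 and 27.1% in shCTL and 30.5, 25.7 and 24.8% in shRor1. The share of TEAD4 was below all controls in libraries 2 and 3 of shRor1, the same libraries in which WWTR1 was above all controls. Over all genes tested, 29.3% had these libraries both above or both below all controls.

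The second question was whether the mRNA of the direct targets, which is commonly read for the activity of YAP1 and TAZ, differed between the groups. CCN1 (ENSG00000142871.11, chr1:86046444-86050272, plus strand) was at 774, 696 and 824 TPM in shCTL, against 789, 673 and 749 TPM in shRor1. CCN2 (ENSG00000118523.5, chr6:132269316-132272512, minus strand), whose promoter stretch with 3 motifs is printed above, was at 258, 202 and 251 TPM in shCTL, against 238, 198 and 247 TPM in shRor1. ANKRD1 (ENSG00000148677.6, chr10:92671853-92680844, minus strand) was at 394, 361 and 418 TPM in shCTL, against 355, 354 and 423 TPM in shRor1. The groups overlapped for each of these genes, and the shRor1 means were 96.4%, 96.3% and 96.5% of the shCTL means.

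The log2 fold changes of CCN1, CCN2 and ANKRD1 were all -0.05, with standard errors of 0.09, 0.12 and 0.10 and an adjusted p of 0.986 each from limma. Their intervals give what these libraries could still hold. As a ratio of shRor1 to shCTL, the 95% interval ran from 0.83 to 1.12 for CCN1, from 0.791 to 1.18 for CCN2 and from 0.827 to 1.12 for ANKRD1. After median ratio scaling the log2 fold change of each was -0.11. Over all alternatives the lowest bound of an interval was 0.778 for CCN1, 0.739 for CCN2 and 0.776 for ANKRD1, each without library 2 of shCTL. The highest bound was 1.19 for CCN1, 1.27 for CCN2 and 1.19 for ANKRD1, each with a library left out. These bounds are no limit of detection, and each holds for its gene alone, without adjustment over all genes tested. For ROR1, at 73% of the control mean, the interval was wider, from 0.542 to 1.02 (adjusted p = 0.984 from limma).

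AMOTL2 (ENSG00000114019.10, chr3:134074189-134094321, minus strand), an angiomotin family protein that binds and restrains YAP1, was at 83.6, 89.5 and 86.2 TPM in shCTL, against 87.8, 81.6 and 77.9 TPM in shRor1. Libraries 2 and 3 of shRor1 lay below all controls and library 1 lay within their range, with a log2 fold change of -0.07 (95% interval -0.24 to 0.10, adjusted p = 0.984 from limma), or -0.13 after median ratio scaling. A position of libraries 2 and 3 both above or both below all controls was shared by 29.3% of all genes tested. The pseudogene RPL39P5 shares exon sequence with AMOTL2 on the same strand and had between 0.15 and 3.02 TPM, little beside AMOTL2. LATS2 (ENSG00000150457.7, chr13:21547175-21635725, minus strand) was at 7.74, 7.38 and 8.31 TPM in shCTL, against 7.78, 7.44 and 8.58 TPM in shRor1. The groups covered almost the same range, and the log2 fold change was 0.02 (95% interval -0.23 to 0.27). Both genes are targets that restrain YAP1 and TAZ in turn, and neither passed the test.

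**Figure D3:**
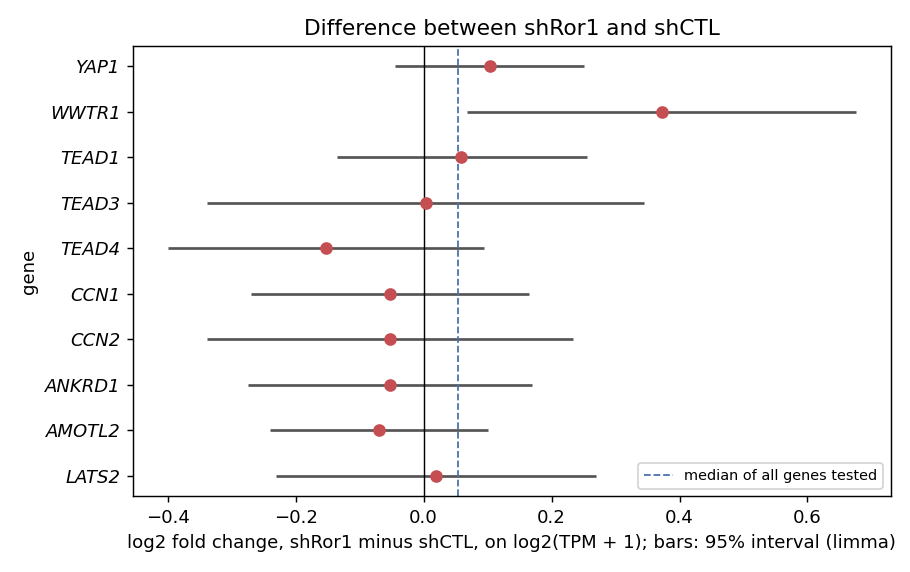
Log2 fold change of shRor1 against shCTL on the log2(TPM + 1) scale (x axis) for each gene (y axis), with bars for the 95% interval from limma and a dashed line at the median of all genes tested, 0.05. The interval of WWTR1, 0.07 to 0.68, lies above 0, and those of the other 9 genes include 0.

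By direction, 5 of the 10 members were above 0 and 5 were below, with a median log2 fold change of -0.03, and over all genes tested 67% were above 0 with a median of 0.05. The 5 genes above 0 were YAP1, WWTR1, TEAD1, TEAD3 and LATS2, and TEAD1, TEAD3 and LATS2 lay below 0 after median ratio scaling. None had an adjusted p below 0.05, where 0% of all genes did.

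CCN1, CCN2 and ANKRD1 varied between libraries more than between groups. Each had its lowest value in the second shRor1 library, followed for CCN1 and CCN2 by the second shCTL library. Of the luminal markers TFF1 was highest in library 2 of each group, at 6.14 TPM in shCTL and 15.3 TPM in shRor1. FOXA1 was at 3.72, 4.74 and 4.21 TPM in shCTL, against 4.43, 4.42 and 5.45 TPM in shRor1. GATA3 was at 3.83, 4.69 and 4.69 TPM in shCTL, against 3.86, 4.12 and 3.97 TPM in shRor1. Whether TFF1 bears on the low values of CCN1 and CCN2 in library 2 was not tested. Library 3 was the highest of its group for WWTR1, ANKRD1, LATS2 and TEAD1. From lowest to highest library, CCN2 moved by 0.38 on the log2 scale, CCN1 by 0.29 and ANKRD1 by 0.26, while WWTR1 moved by 0.70 and YAP1 by 0.17. The ratio of CCN1 to CCN2 was 3.25 ± 0.229 in shCTL and 3.25 ± 0.193 in shRor1, and that of ANKRD1 to CCN2 was 1.66 ± 0.133 in shCTL and 1.66 ± 0.153 in shRor1 (SD, n = 3 each). These ratios within a library are free of scaling between libraries.

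**Figure D4:**
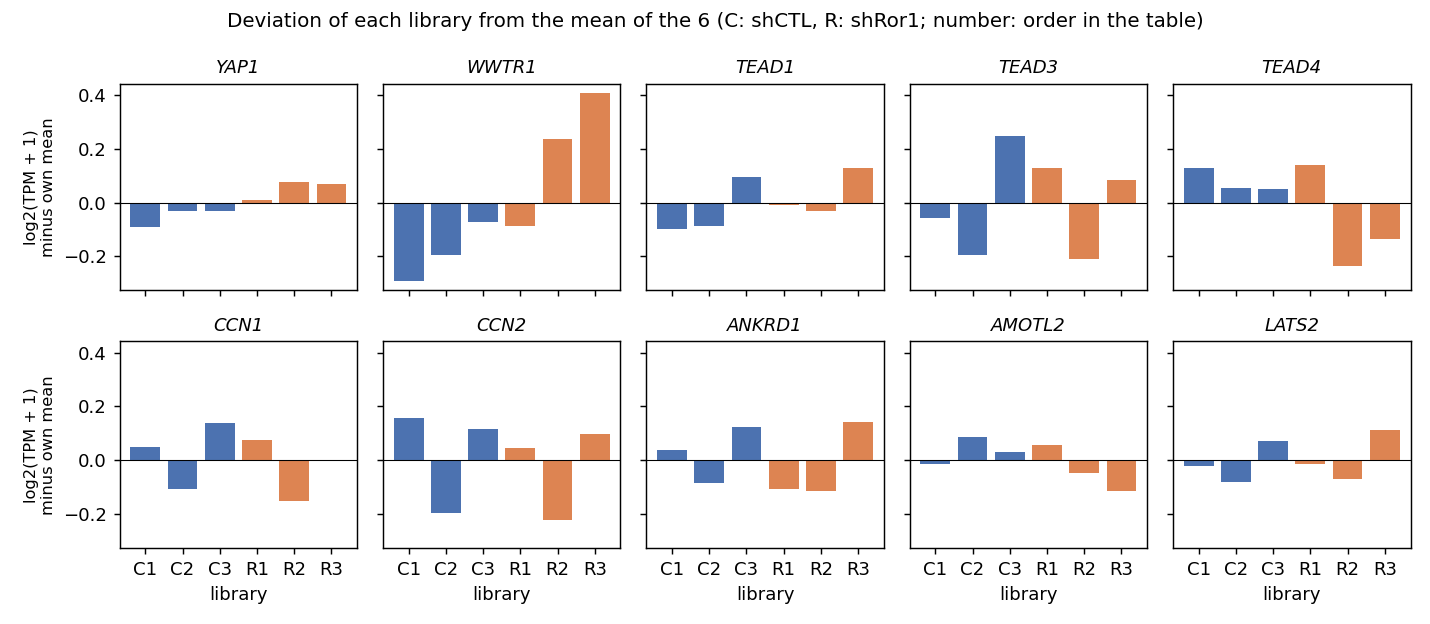
Deviation of each library from the mean over the 6 libraries on the log2(TPM + 1) scale (y axis) for the 10 genes, by library (x axis; C1 to C3 shCTL, R1 to R3 shRor1, numbered by order in the table). CCN1 and CCN2 are lowest in C2 and R2, whereas WWTR1 runs from -0.29 in C1 to 0.41 in R3.

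Likeness between genes was measured as the root mean square difference of their log2(TPM + 1) values over the 6 libraries, each gene centred on its own mean. CCN1 was the 257th nearest of 16553 genes to CCN2, at 0.0772, where a gene without any variation would stand at 0.151. From the side of CCN1, CCN2 was at place 1101, with a gene without variation at 0.101. LATS2 was the 156th nearest to ANKRD1, at 0.0548. WWTR1 was the most distant of the members from each of these targets, at place 14454 from CCN1, 14334 from CCN2 and 13468 from ANKRD1. This distance grows with a gene's own variation, and WWTR1 had the widest range of the members, 0.70 on the log2 scale. The 3 genes nearest to CCN2 were MICOS10 (0.0260), WDR13 (0.0271) and ABHD2 (0.0279). Those nearest to CCN1 were NPRL3, APEH and GTPBP3 (0.0142 to 0.0200), and those nearest to ANKRD1 were ZC3H4, NUDT2 and RINL (0.0224 to 0.0287). All share the same 6 libraries, and the distances are given as a description.

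The other genes of the pathway were counted in lists. Of 16 Hippo kinases and scaffolds 15 were tested, 0 had an adjusted or unadjusted p below 0.05, and the median log2 fold change was 0.08. The groups did not overlap for 2 of the 15, both higher in shRor1, where 6.48% of all genes tested were so. LATS1, the sister kinase of LATS2, was at 13.5 ± 0.205 TPM in shCTL and 14.8 ± 0.310 TPM in shRor1, and MOB1B, a cofactor of the LATS kinases, at 18.2 ± 0.272 and 20.3 ± 1.54 TPM (SD, n = 3 each). The most abundant of the list were FRMD6, a FERM domain protein upstream of the cascade, with 187 ± 19.1 and 186 ± 29.4 TPM, and MOB1A with 88.0 ± 1.54 and 91.3 ± 7.63 TPM in shCTL and shRor1 (SD, n = 3 each). NF2 mRNA was at 9.92 ± 1.17 and 10.4 ± 0.250 TPM. AMOT, the angiomotin that names the AMOTL family, was at most 0.23 TPM in all libraries, so that AMOTL2 and AMOTL1 (16.9 ± 0.323 TPM in shCTL) were the angiomotins expressed.

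Among the other TEAD cofactors TEAD2 and VGLL4 were tested and 0 of 2 had an unadjusted p below 0.05. VGLL4, which competes with YAP1 for TEADs, was at 25.2, 29.3 and 29.3 TPM in shCTL, against 26.7, 35.4 and 35.2 TPM in shRor1, high in the same shRor1 libraries as WWTR1 (log2 fold change 0.20, 95% interval -0.10 to 0.50). VGLL1 was listed at 0 and VGLL3 was below 1 TPM.

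A further 17 YAP/TAZ targets were all tested, 0 had an adjusted or unadjusted p below 0.05, and 0 were without overlap, against 7.78% of all genes. Their median log2 fold change was 0.03, with 11 above 0 and 6 below, from -0.13 (GADD45A) to 0.24 (NT5E). The most abundant were F3, the tissue factor that starts coagulation, with 442 ± 48.0 and 431 ± 87.3 TPM, and AXL, a receptor tyrosine kinase, with 396 ± 8.05 and 392 ± 45.5 TPM in shCTL and shRor1 (SD, n = 3 each). NT5E, the ecto-nucleotidase CD73, was at 347, 378 and 349 TPM in shCTL, against 339, 494 and 454 TPM in shRor1. Libraries 2 and 3 of shRor1 lay above all controls, where 29.3% of all genes tested had them both above or both below.

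**Figure D5:**
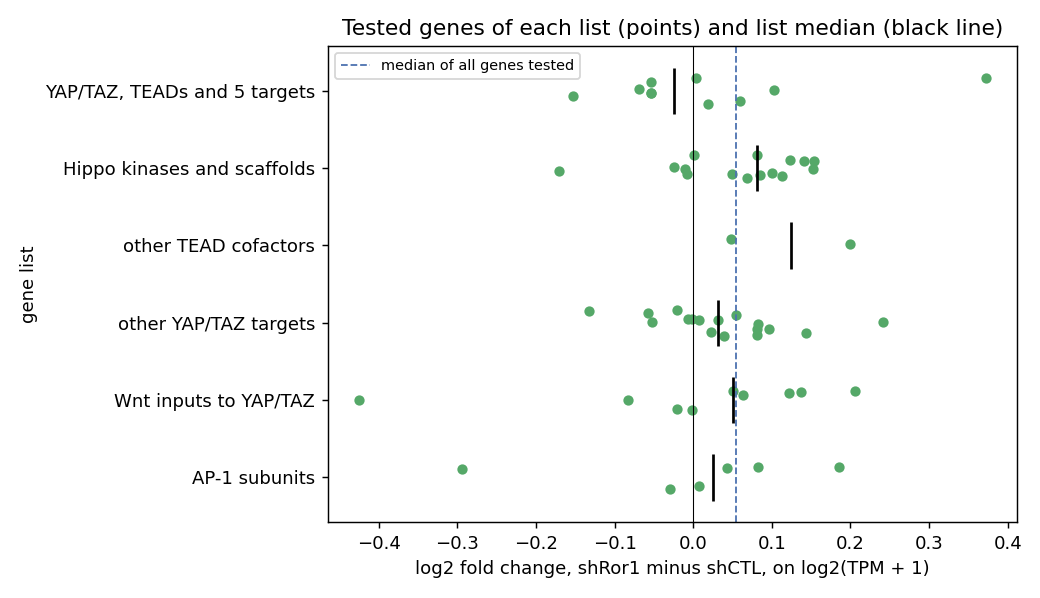
Log2 fold change of shRor1 against shCTL (x axis) of the tested genes of each list (y axis), with a black line at the list median and a dashed line at the median of all genes tested, 0.05. List medians lie between -0.03 and 0.12, the latter over 2 genes, and the lowest point is ROR1 at -0.42.

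Of 10 Wnt inputs to YAP/TAZ 9 were tested and 0 had an unadjusted p below 0.05, with a median of 0.05. RHOA, the GTPase that links Wnt receptors to the cytoskeleton, was at 601 ± 20.1 and 592 ± 16.2 TPM, and GNA12, a G protein alpha subunit, at 78.1 ± 3.83 and 81.5 ± 1.8 TPM (SD, n = 3 each). For RHOA this is mRNA, while the paper reports lower RhoA protein in shRor1 cells. WNT5A was at 4.96 ± 0.427 and 5.88 ± 0.583 TPM, and ROR2 did not exceed 0.01 TPM. The 6 AP-1 subunits, which share enhancers with TEADs, gave 0 genes at an unadjusted p below 0.05 and a median of 0.03. FOSL1 was the most abundant of them at 226 ± 28.0 and 229 ± 49.5 TPM, followed by FOSL2 at 79.1 ± 7.41 and 78.1 ± 13.4 TPM (SD, n = 3 each).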

How the data were processed

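RNA of MDA-MB231 cells was measured in 3 shCTL and 3 shRor1 libraries. As the methods and processing notes state, the authors used CASAVA 1.8.2 and FastQC 0.10.0, mapped reads to GRCh37 with STAR and Ensembl 73, and estimated gene abundances with RSEM 1.2.5. The values deposited by the authors are TPM with 2 decimals, although the table is named for expected counts. TPM holds no depth, so no counting error could be given, and edgeR, used by the authors on counts, could not be run. The labels name polyadenylated RNA and an empty vector, the methods a total RNA kit and a non-silencing shRNA. Columns carry 2 distinct headers and no replicate number, and 0 columns were left unused.

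The filter asked for 1 TPM or more in 3 or more libraries, which left 16554 of 57445 genes, and limma 3.58.1 (R 4.3.3) fitted log2(TPM + 1) (mean-variance trend, Benjamini-Hochberg adjustment, threshold 0.05), which was tested on simulated data. The pseudocount of 1 understates changes of low genes. Single genes also had an exact two-sided permutation test. Symbols and coordinates came from GENCODE 44 on GRCh37 (55022 identifiers matched). Promoter windows were those of RefSeq on GRCh38.p14, and printed stretches were placed on GRCh37 by exact match. The members, lists and tests were chosen with earlier results of these data known. Named were all members, list genes at an unadjusted p below 0.05, the 2 most abundant of each list, ROR1 and the 3 genes nearest to CCN1, CCN2 and ANKRD1. LATS1, MOB1B, WWC1, GNA13, TFF1, FOXA1, GATA3, RPL39P5, NF2, AMOT, AMOTL1, VGLL1, VGLL3, NT5E, GADD45A, WNT5A and ROR2 were named after their values were seen. Alternatives were another pseudocount, 2 other filters, 2 scalings, no trend, array weights, each library left out and, chosen after the data were seen, the leading residual component as a covariate.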

Additional observations from a re-analysis of the deposited data

How the results depend on the processing

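No paired analysis was possible because no column names a replicate, and all fits are without a replicate block. Genes at an adjusted p below 0.05 numbered 0 in 13 of 14 alternatives and ran from 0 to 1 on leaving out each library (1 without library 3 of shRor1, no member). For an unadjusted p below 0.05 the count was 472, 1363 without a filter, 227 at a mean of at least 5 TPM, 859 with array weights, 1060 with the leading residual component, and 278 to 1720 on leaving out each library, the highest without library 1 of shRor1. The share of called genes that were higher in shRor1 was 80.9% of 472, against 53.9% of 371 called after quantile normalization and 58.5% of 393 called after median ratio scaling. The cause was not tested.

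The log2 fold changes of the 10 members are fixed under 4 of the 14 alternatives (no filter, a mean of at least 5 TPM, no trend and the leading residual component). Of the 100 values under the other 10 alternatives 85 kept their direction and 15 reversed, and YAP1, WWTR1, TEAD4, ANKRD1 and AMOTL2 kept theirs throughout. The adjusted p of members was at least 0.44 in all 14. After median ratio scaling the log2 fold changes were -0.001 for TEAD1, -0.055 for TEAD3 and -0.035 for LATS2, and after quantile normalization -0.066 for TEAD3 and -0.060 for LATS2. With each library left out they ran from -0.094 to 0.128 for TEAD3, from -0.119 to 0.011 for CCN1, from -0.164 to 0.044 for CCN2 and from -0.032 to 0.060 for LATS2. WWTR1 ran from 0.262 to 0.508, with an unadjusted p from 0.00171 (without the first shRor1 library) to 0.0774 (without the first shCTL library). Members without overlap were 1 with all libraries and from 1 to 4 with each left out, 4 without library 1 of shRor1 (YAP1, WWTR1, TEAD4 and AMOTL2), where 29.3% of all genes tested did not overlap, 3 without library 3 of shCTL (YAP1, WWTR1 and TEAD1), where 22.1% did not, and 2 without library 2 of shCTL (YAP1 and CCN2) or library 3 of shRor1 (YAP1 and ANKRD1), where 13.7% did not in each.

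Genes at an unadjusted p below 0.05 numbered 0 in each list with all libraries. ROR1 was the 1 gene of the Wnt inputs under quantile normalization (1), median ratio scaling (1) and the leading residual component (1). With each library left out the counts ran from 0 to 1 for the Wnt inputs, 0 to 2 for the Hippo kinases and scaffolds, 0 to 1 for the other TEAD cofactors and 0 to 1 for the other targets. Without library 1 of shRor1 these were GNA13, MOB1B and WWC1, VGLL4 and NT5E, where 1720 of all 16554 genes tested were at such a p. ROR1 was counted without library 2 of shCTL, where 278 of all genes were, or library 3 of shRor1, where 335 were.

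As TPM lacks depth, no counting error can be set beside the spread of the libraries, and 3 libraries per group bound the members only to the intervals given.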

Other observations

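Deviations from the group mean were shared between libraries of the groups that stand in the same place in the table. Across the 16554 tested genes, which are not independent, the correlation of these deviations was 0.284 for the first, 0.238 for the second and 0.399 for the third libraries, and between -0.281 and -0.00305 for the 6 other combinations. Deviations of a group cancel within each gene, so positive values in the same place force negative ones among the other combinations. This is given as a description, since nothing states that the place in the table marks a shared culture or batch, and no fit used it. Among the members CCN1, CCN2, ANKRD1, LATS2 and TEAD3 were lowest in the second library of both groups. The leading component of these deviations held 40.8% of their variance and set the third library of each group apart from the others. As a covariate it cannot move a fold change, since it is taken from residuals of the group fit, and for the same reason its p-values can be too small. For WWTR1 it gave a standard error of 0.10 and an adjusted p of 0.732 from limma.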
